A study of Mus musculus with 16 samples.

Results

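Complex I (NADH:ubiquinone oxidoreductase) is the entry point of electrons from NADH into the mitochondrial respiratory chain. Its nuclear genes carry the symbol prefix Nduf, and every row with that prefix was taken from the 2 deposited count tables of this mouse heart study. The first table held 45 such rows of 14138, and the second held 49 of 17831. The 45 rows were 36 subunits, 7 assembly factors with an Ndufaf symbol, and the pair Ndufa4 and Ndufa4l2, which belong to cytochrome c oxidase (complex IV) and its relatives despite their names. The second table added the assembly factor Ndufaf8 and 3 gene copies, Ndufb4b, Ndufb4c and Ndufa11b. The subunit Ndufb1 was not analysed here.

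Total RNA from hearts was sequenced in 16 libraries. The first table held 5 wild-type (WT) hearts and 5 CPT2H-KO hearts, in which carnitine palmitoyltransferase 2 (CPT2), an enzyme needed to bring long-chain fatty acids into the mitochondrial matrix for β-oxidation, was deleted in cardiomyocytes. The second table held 3 hearts titled CPT2 single KO, which carry the genotype CPT2H-KO, and 3 titled CPT2/USP30 double KO, genotype CPT2/USP30H-KO, in which USP30, a deubiquitinase of the mitochondrial outer membrane that opposes mitophagy, was removed as well. All 6 hearts of the second table therefore lacked cardiomyocyte CPT2. USP30 alone was deleted with Myh6-Cre, a cardiomyocyte driver, on a floxed allele, and the labels do not name the driver for CPT2, the ages, the sexes or the litters. The WT hearts are not said to carry Cre. The labels call the samples biological replicates, and the p-values below set group differences against the spread between these samples. No group was compared across the tables.

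The complex is L-shaped. A peripheral arm in the matrix holds the N module, which oxidises NADH, and the Q module, which reduces ubiquinone. A membrane arm pumps protons and is divided here into a proximal and a distal part. A conserved core catalyses the reaction, the accessory subunits surround it, and the assembly factors help to build it without staying in the enzyme. Another set of core subunits, the mt-Nd genes, is encoded in mitochondrial DNA. Cardiomyocytes are rich in mitochondria and depend on this enzyme for most of their ATP.

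The libraries of the first table held 54674422 to 132762776 counts and those of the second 11067969 to 13532716. Cpt2 was lower in the CPT2H-KO hearts (30.4 to 44.9 CPM, which are counts scaled to each library's TMM-adjusted size, against 53.0 to 89.9, log2 fold change -0.95, adjusted p = 9.71e-04 by edgeR's quasi-likelihood test). All 10 cardiomyocyte markers were present in every library. Myl7, an atrial myosin light chain, stood at 25.4 to 194 CPM in the WT hearts, at 14.1 and 144 CPM in CPT2H-KO replicates 1 and 5, and at 0.285 to 0.610 CPM in the other CPT2H-KO hearts. One library of the second table, double KO replicate 1, stood apart from its group. Its counts differed from those of the other double KO libraries by a chi-square of 60.2 to 68.4 per degree of freedom, where replicates 2 and 3 differed by 19.7. In bulk tissue, fewer cells of a type and less RNA per cell cannot be told apart.

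In the CPT2H-KO hearts the nuclear subunits of complex I were lower as a block. Of 36 subunits, 33 were lower and 0 higher at a Benjamini-Hochberg adjusted p under 0.05 (edgeR), where 33.7% of the 14123 tested genes passed, 17.0% lower and 16.7% higher. All 36 fold changes lay below 0, as did 50.9% of all tested genes. Their median log2 fold change was -0.34, with a range of -0.56 to -0.16, beside -0.0073 for all tested genes. The CPT2H-KO and WT libraries did not overlap at all for 27 of the 36, beside 13.2% of all tested genes that were lower without overlap.

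**Figure D1:**
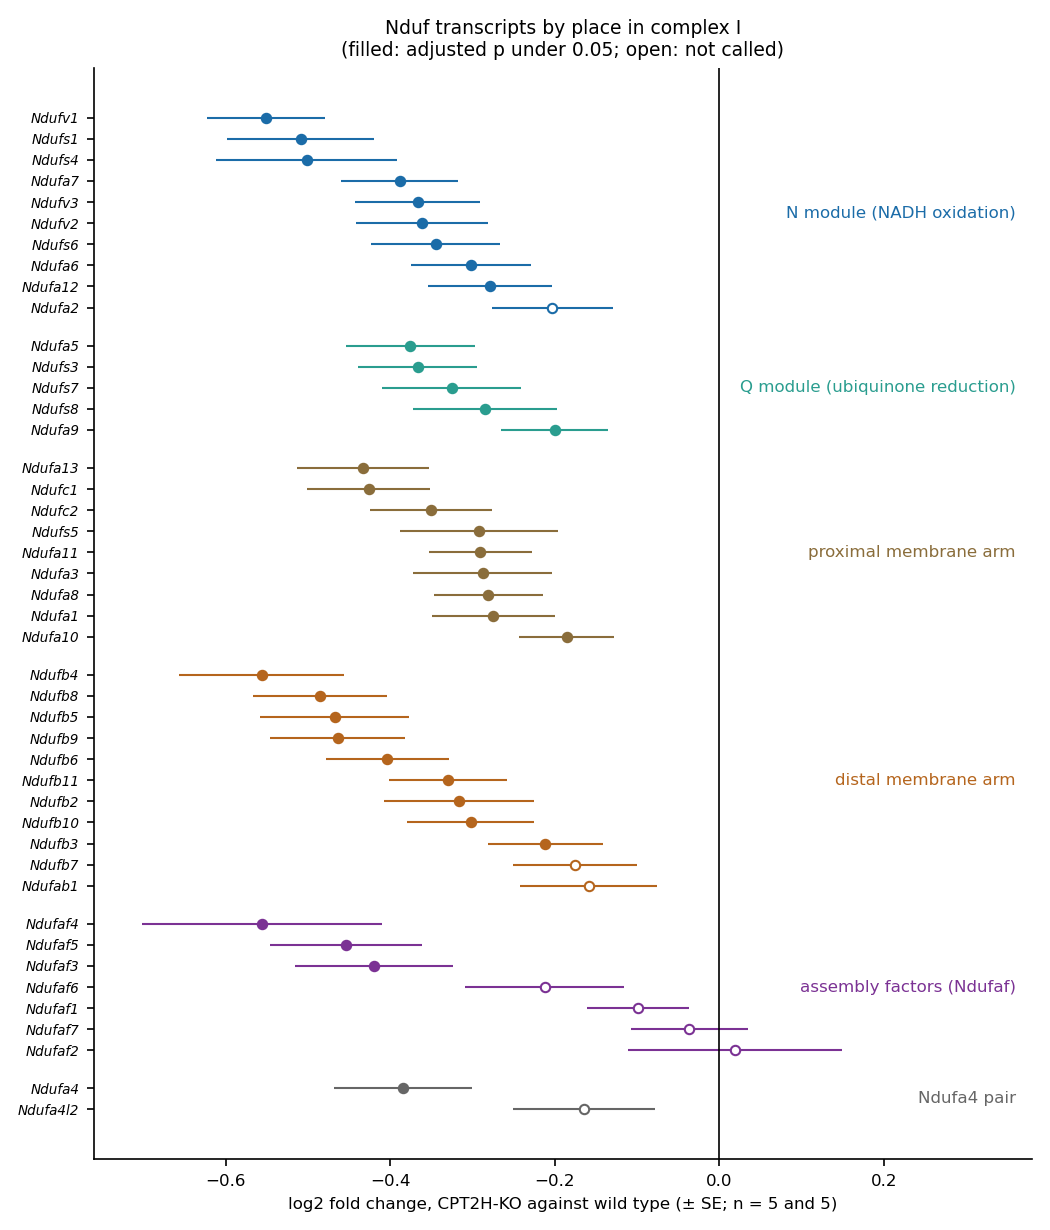
Log2 fold change, CPT2H-KO against WT, of each Nduf gene (points; bars are ± 1 SE from edgeR; filled points have an adjusted p under 0.05), grouped by module of the enzyme, Ndufaf assembly factors and the Ndufa4 pair; 1 subunit is not drawn. Every subunit drawn lies below 0, and open points among them are Ndufa2, Ndufb7 and Ndufab1.

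Subunit mRNAs are short and abundant, and in this comparison short transcripts had lower values than long ones over all tested genes. Of the 1544 genes within the subunits' range of mean CPM, 22.8% were lower. Among the tested genes with an annotated principal transcript, those up to 2209 bases, the shortest of 3 groups of like size, had a median log2 fold change of -0.093 and those above 3869 bases, the longest, one of 0.075. This shortest group held 33 of the 36 subunits. Within the 36 subunits that trend was not seen. Across the CPT2H-KO libraries, the Spearman correlation of the deviation from the WT mean with length was -0.22 to -0.085 for the subunits. Over all tested genes with a length it was 0.090 to 0.195. Of the 874 genes within the subunits' ranges of mean CPM and of transcript length, 28.5% were lower and 23.5% were lower without overlap, and their median was -0.066. That length range, 419 to 4371 bases, reaches into the longest group, so these genes are not matched to the subunits in length. When each library's trend with transcript length was put into the edgeR model as an offset, 19 of the 36 subunits were lower (15.5% of the genes in that fit), and the median was -0.19. All 36 values stayed below 0, from -0.50 to -0.011. The offset rests on annotated lengths. These were long for Ndufb2 (4371 bases), which was lower in this fit, and for Ndufab1 (3479 bases).

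**Figure D2:**
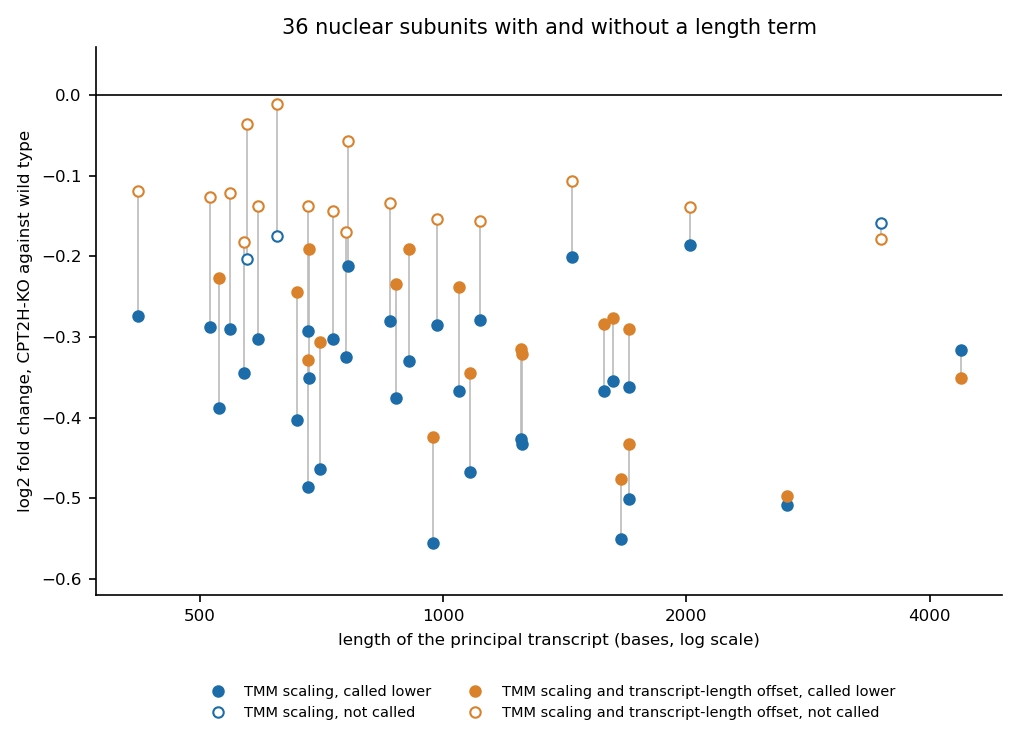
Log2 fold change, CPT2H-KO against WT, of the 36 nuclear subunits against the length of the principal transcript in bases (log axis), in the model without and with the transcript-length offset. The subunit median is -0.34 without the offset and -0.19 with it, and no subunit lies above 0 in either.

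Every module and letter class took part. The share over all tested genes, for the counts without the offset, was 17.0% lower. The N module had 9 of 10 subunits lower (median -0.36), the Q module 6 of 6 (-0.34), the proximal membrane arm 9 of 9 (-0.29) and the distal membrane arm 9 of 11 (-0.33). By letter class, 11 of 13 Ndufa, 9 of 10 Ndufb, 2 of 2 Ndufc, 8 of 8 Ndufs and 3 of 3 Ndufv genes were lower, with medians from -0.39 (Ndufc) to -0.28 (Ndufa). Of the 29 accessory subunits, 26 were lower (median -0.32). With the length offset, 6 of 10 N module, 3 of 6 Q module, 3 of 9 proximal and 7 of 11 distal subunits were lower. In that fit 15.5% of genes were lower. Whether the modules differed from each other was not tested.

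The lowest fold change among the core subunits was that of Ndufv1, the subunit that binds NADH and the flavin FMN (chr19:4007384-4012806, minus strand, mm10). WT replicates 1 to 5 had 304, 306, 333, 294 and 281 CPM, and CPT2H-KO replicates 1 to 5 had 189, 193, 220, 212 and 223 CPM. Every WT heart lay well above every CPT2H-KO heart. On the log2 scale the difference was -0.55 ± 0.071 (SE), with an adjusted p of 0.000307 from edgeR.

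Ndufs1, the large N module subunit that carries iron-sulfur clusters (chr1:63143596-63176833, minus strand, mm10), had 370, 378, 386, 349 and 339 CPM in the WT hearts. The CPT2H-KO hearts had 212, 237, 275, 263 and 294 CPM. The groups did not overlap, with CPT2H-KO replicate 1 lowest and replicate 5 closest to the WT hearts (log2 fold change -0.51 ± 0.089 SE, edgeR adjusted p = 0.00176). Ndufv2, the remaining core subunit of the N module and another iron-sulfur protein, ranged from 177 to 210 CPM in WT and from 137 to 173 CPM in CPT2H-KO hearts (-0.36, adjusted p = 0.00575). Ndufv3, a small accessory subunit beside them, gave -0.37 (adjusted p = 0.00423).

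Among the accessory N module subunits, Ndufs4, whose loss in humans causes Leigh syndrome, had 82.4, 86.1, 85.0, 75.4 and 73.5 CPM in the WT hearts. In the CPT2H-KO hearts it had 43.2, 54.6, 60.7, 56.9 and 68.8 CPM. The groups did not overlap, although CPT2H-KO replicate 5 came close to the lowest WT heart (-0.50 ± 0.11 SE, edgeR adjusted p = 0.00555). Ndufa7 ranged from 54.3 to 61.99 CPM in WT and from 39.3 to 49.1 CPM in CPT2H-KO hearts (-0.39, adjusted p = 0.00215), again without overlap. The zinc-binding subunit Ndufs6 gave -0.34 (adjusted p = 0.00678). Ndufa2 was the N module member that did not pass the test. It ranged from 52.1 to 65.8 CPM in WT and from 46.7 to 55.6 CPM in CPT2H-KO hearts, so the groups overlapped (-0.20 ± 0.074 SE, edgeR adjusted p = 0.0538).

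In the Q module, Ndufs3, a structural core subunit, ranged from 90.5 to 107 CPM in WT and from 69.6 to 84.6 CPM in CPT2H-KO hearts, without overlap (-0.37 ± 0.072 SE, edgeR adjusted p = 0.00324). The accessory subunit Ndufa5 had 106, 106, 108, 96.5 and 93.7 CPM in the WT hearts and 69.3, 72.6, 84.3, 80.9 and 86.6 CPM in the CPT2H-KO hearts. These groups were separate too, with CPT2H-KO replicate 5 nearest to the WT hearts (-0.38 ± 0.078 SE, adjusted p = 0.00429). Ndufs7, which holds the last iron-sulfur cluster before ubiquinone, gave -0.33 (adjusted p = 0.0130) with overlap. Ndufs8, another iron-sulfur subunit, ranged from 66.3 to 79.6 CPM in WT and from 50.3 to 67.3 CPM in CPT2H-KO hearts, with overlap (-0.28, adjusted p = 0.0274). Ndufa9 changed by less (-0.20, adjusted p = 0.0359).

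The proximal membrane arm joins the matrix arm to the proton-pumping part. Ndufc1 had 61.4, 63.6, 64.3, 54.6 and 57.6 CPM in the WT hearts and 40.6, 42.4, 46.0, 44.9 and 50.4 CPM in the CPT2H-KO hearts. The groups were separate (-0.43 ± 0.075 SE, edgeR adjusted p = 0.00172), as they were for its partner Ndufc2 (-0.35, adjusted p = 0.00469). Ndufa13, also known as GRIM-19, ranged from 127 to 155 CPM in WT and from 94.0 to 117 CPM in CPT2H-KO hearts (-0.43, adjusted p = 0.00231), without overlap. The largest p-values of the arm were those of Ndufa10 (-0.19, adjusted p = 0.0285) and Ndufs5 (-0.29, adjusted p = 0.0363). Ndufs5 overlapped between the groups, with 34.0 to 43.5 CPM in WT and 27.1 to 36.4 CPM in CPT2H-KO hearts.

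In the distal membrane arm, Ndufb8, a subunit whose protein is often used as a gauge of assembled complex I (chr19:44548572-44555440, minus strand, mm10), had 177, 173, 179, 171 and 155 CPM in the WT hearts. It had 102, 120, 126, 126 and 138 CPM in the CPT2H-KO hearts. These groups were separate (-0.49 ± 0.082 SE, edgeR adjusted p = 0.00139). Ndufb4 had 60.7, 66.3, 63.1, 52.5 and 52.2 CPM in the WT hearts and 36.1, 37.8, 37.5, 40.2 and 48.9 CPM in the CPT2H-KO hearts. CPT2H-KO replicate 5 stood just under the lowest WT hearts, and the log2 fold change of -0.56 ± 0.10 SE (edgeR adjusted p = 0.00201) was the most negative of the 36 subunits. Part of the Ndufb4 transcript is identical to that of its gene copy Ndufb4c, so the Ndufb4 values are uncertain. Ndufb9 gave -0.46 (adjusted p = 0.00178), also without overlap. Ndufb3 was lower by less (-0.21, adjusted p = 0.0365).

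Both distal subunits that did not pass the test overlapped between the groups. Ndufb7 ranged from 77.1 to 92.4 CPM in WT and from 68.1 to 84.2 CPM in CPT2H-KO hearts (-0.18 ± 0.076 SE, edgeR adjusted p = 0.0952). Ndufab1, the mitochondrial acyl carrier protein, which serves fatty acid and lipoic acid synthesis besides being a complex I subunit, had 60.2, 57.6, 56.5, 51.3 and 50.8 CPM in the WT hearts. It had 47.4, 44.2, 56.4, 53.5 and 46.2 CPM in the CPT2H-KO hearts, of which replicates 3 and 4 lay within the WT range. Its log2 fold change was the closest to 0 of the 36 (-0.16 ± 0.083 SE, edgeR adjusted p = 0.163).

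Across libraries, the subunits moved together within each group. The median log2 deviation of the 36 subunits from the WT mean was 0.043, 0.019, 0.095, -0.049 and -0.12 in WT replicates 1 to 5, and -0.51, -0.40, -0.26, -0.32 and -0.23 in CPT2H-KO replicates 1 to 5. CPT2H-KO replicate 1 was the lowest of its group for 29 of the 36 subunits, and replicate 5 the highest for 22. WT replicate 5 was the lowest of its group for 30 subunits and WT replicate 3 the highest for 25. As a share of the counts from nuclear genes, the subunits made up 1.24%, 1.23%, 1.26%, 1.19% and 1.11% in the WT hearts and 0.776%, 0.928%, 0.980%, 0.967% and 1.04% in the CPT2H-KO hearts. These shares did not overlap. Without CPT2H-KO replicate 1, 30 subunits were lower (16.9% of genes), with a median of -0.31.

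**Figure D3:**
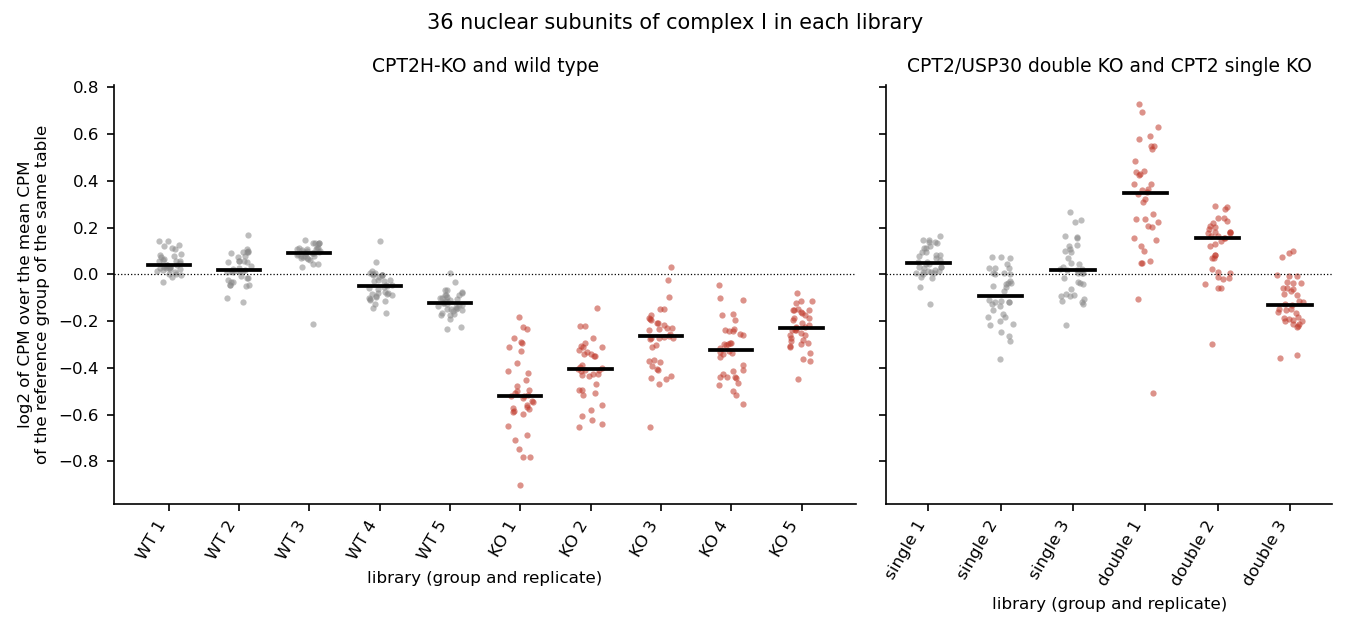
Log2 deviation of each of the 36 nuclear subunits (points) from the mean of the reference group (WT or single KO) in every library, with the library's median as a bar. The medians of the CPT2H-KO libraries lie between -0.51 and -0.23, and those of the double KO libraries spread from -0.13 to 0.35.

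The same libraries differed in their cell type markers. For the marker counts, the shares over all tested genes were 17.0% lower and 16.7% higher. Cardiomyocyte markers were lower for 7 of 10 genes in the CPT2H-KO hearts and higher for 1, the myosin-binding protein gene Mybpc3 (0.47, edgeR adjusted p = 0.00283). Their summed level was 28356 to 30543 CPM in WT and 23020 to 28308 CPM in CPT2H-KO hearts. The summed subunit CPM per cardiomyocyte marker CPM was 0.140 to 0.155 in WT and 0.116, 0.139, 0.125, 0.130 and 0.157 in CPT2H-KO hearts, so the groups overlapped on that ratio. Fibroblast markers summed to 440 to 592 CPM in WT and 596 to 1092 CPM in CPT2H-KO hearts, with 2 of 6 genes higher and Col1a1, Dcn and the others present in every library. Smooth muscle and pericyte markers were lower for 3 of 5 genes, with sums of 471 to 543 CPM in WT and 325 to 401 CPM in CPT2H-KO hearts, and 0 of 6 endothelial, 0 of 6 macrophage and 0 of 6 erythroid markers passed the test. The part of these shifts in the subunit values was not tested. With the atrial markers as a covariate, 16 subunits were lower (9.75% of genes, subunit median -0.29). The 2 CPT2H-KO hearts with Myl7 above 1 CPM, set against the WT hearts, gave 17 subunits lower (13.5% of genes, subunit median -0.36). The labels give no sex. Y-linked transcripts were near 0 in WT replicate 1 and in CPT2H-KO replicates 1 and 3, and with a term for their presence 30 subunits were lower (15.4% of genes).

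Some subunits passed the test under every setting run. Of the 36 subunits, 14 were lower in the reported fit and under each of the 20 alternative settings run, where 7.58% of the genes with a value in all these fits were. They included Ndufv1 and Ndufs1 of the N module, Ndufs3 and Ndufa5 of the Q module, Ndufc1 and Ndufa13 of the proximal arm, and Ndufb4, Ndufb8 and Ndufb9 of the distal arm. Scaling by library totals alone made all 36 lower (34.2% of genes) with a subunit median of -0.60, and it also moved the median of all genes to -0.27.

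The short stretches around the start of these genes are shown because the subunits moved together and because 2 motifs are known from promoters of respiratory chain genes. RefSeq windows of 300 bases (250 before to 50 after the start, GRCm38.p6) were at hand for 41 of the 49 Nduf genes. The NRF1 motif, written as GCGCA, any base and GCGC and searched on both strands like the others, was in 9 of the 41 windows (22.0%), beside 5.19% of the 27025 genes with a window. The YY1 motif AAGATGGC was in 8 of the 41 (19.5%), beside 3.19% of all. The full ERR motif TCAAGGTCA was in 0 of the 41 (0.466% of all), and its inner part AAGGTCA, which the full motif contains, was in 3 (7.32%, beside 5.38% of all). In the windows below the motif is in capitals, read 5′ to 3′ on the gene's strand. The first 4 hold the NRF1 motif and the last 3 the YY1 motif, and Ndufs6 holds both, its NRF1 motif on the opposite strand.
Ndufb4, chr16:37654371-37654400, minus strand: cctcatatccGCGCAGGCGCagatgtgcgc
Ndufaf4, chr4:24897960-24897989, plus strand: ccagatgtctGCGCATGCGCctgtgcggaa
Ndufaf5, chr2:140170652-140170681, plus strand: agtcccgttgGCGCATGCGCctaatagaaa
Ndufs6, chr13:73328479-73328508, minus strand: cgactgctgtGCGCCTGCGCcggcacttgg
Ndufs6, chr13:73328433-73328462, minus strand: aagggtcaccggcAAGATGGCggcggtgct
Ndufb8, chr19:44555393-44555422, minus strand: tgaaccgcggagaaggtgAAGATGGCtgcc
Ndufc1, chr3:51408915-51408944, minus strand: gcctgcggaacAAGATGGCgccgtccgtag
In the 3 YY1 windows shown, the motif lies downstream of the start, 22 to 38 bases into the transcript. Over all 8 genes with the YY1 motif it lies 10 to 38 bases in. The motif contains ATG, and whether these matches are translation starts was not tested. The median log2 fold change in the CPT2H-KO hearts was -0.34 for the 9 genes with the NRF1 motif and -0.33 for the 30 without it, and -0.34 and -0.32 for genes with and without the YY1 motif. A letter match is not a measured binding site.

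Ndufa4 was lower too. It had 249, 260, 272, 243 and 234 CPM in the WT hearts and 162, 194, 195, 191 and 223 CPM in the CPT2H-KO hearts, without overlap (-0.38 ± 0.083 SE, edgeR adjusted p = 0.00529). Its paralog Ndufa4l2, known as a hypoxia-induced gene, was at 3.97 to 4.40 CPM in WT and 3.38 to 4.14 CPM in CPT2H-KO hearts and did not pass the test (-0.16 ± 0.087 SE, adjusted p = 0.165).

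The Ndufaf assembly factors were a mixed group. Of 7, 3 were lower (17.0% of genes), 0 were higher (16.7% of genes) and 4 did not pass the test, with a median log2 fold change of -0.21. Ndufaf5, which hydroxylates an arginine of Ndufs7 during assembly, had 9.19, 9.31, 8.37, 8.43 and 8.34 CPM in the WT hearts and 4.98, 6.75, 6.73, 6.64 and 6.72 CPM in the CPT2H-KO hearts. Its groups were separate, with replicate 1 far below the other CPT2H-KO hearts (-0.45 ± 0.092 SE, edgeR adjusted p = 0.00376).

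Ndufaf3 and Ndufaf4 act together on the early Q module intermediate, and both were lower. Ndufaf3 ranged from 9.77 to 11.0 CPM in WT hearts and from 5.95 to 8.56 CPM in CPT2H-KO hearts (-0.42 ± 0.096 SE, edgeR adjusted p = 0.00691). Ndufaf4 had 32.6, 30.9, 29.0, 25.6 and 27.1 CPM in the WT hearts and 12.8, 22.7, 19.7, 19.7 and 23.9 CPM in the CPT2H-KO hearts (-0.56 ± 0.15 SE, edgeR adjusted p = 0.0138). Neither gene overlapped between the groups, and CPT2H-KO replicate 1 was the lowest for both. Ndufaf3 and Ndufaf5 were lower under each of the 20 settings, whereas Ndufaf4 had an edgeR adjusted p of 0.0899 with the atrial covariate and 0.0541 with only the 2 CPT2H-KO hearts that had Myl7 above 1 CPM.

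Of the 4 factors that did not pass, Ndufaf6, an early assembly factor, was separate between the groups (4.94 to 6.13 CPM in WT, 3.73 to 4.92 CPM in CPT2H-KO hearts, -0.21, edgeR adjusted p = 0.112). Ndufaf1, a scaffold of the membrane arm intermediate, ranged from 18.1 to 20.6 CPM and from 17.0 to 19.3 CPM (-0.10 ± 0.062 SE, adjusted p = 0.245). Ndufaf7, an arginine methyltransferase, gave -0.04 ± 0.071 SE (adjusted p = 0.723). Ndufaf2, a paralog of Ndufa12 that acts late in assembly, had 4.30, 4.08, 4.65, 3.73 and 3.93 CPM in the WT hearts and 3.00, 4.75, 4.13, 4.04 and 5.00 CPM in the CPT2H-KO hearts. The groups lay across each other (0.02 ± 0.13 SE, adjusted p = 0.924). Whether the assembly factors differed from the subunits was not tested.

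Per kilobase of principal transcript, the assembly factors were far less abundant than the subunits. In the WT hearts the median level was 6.97 CPM per kilobase for the 7 Ndufaf genes (4.99 to 13.7) and 115 for the 36 subunits (10.1 to 325). Ndufb9 (325) and Ndufb8 (252) led the subunits. Ndufb2 (10.1) and Ndufab1 (15.9) came last, and both have a long annotated principal transcript, which lowers a value per length.

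**Figure D4:**
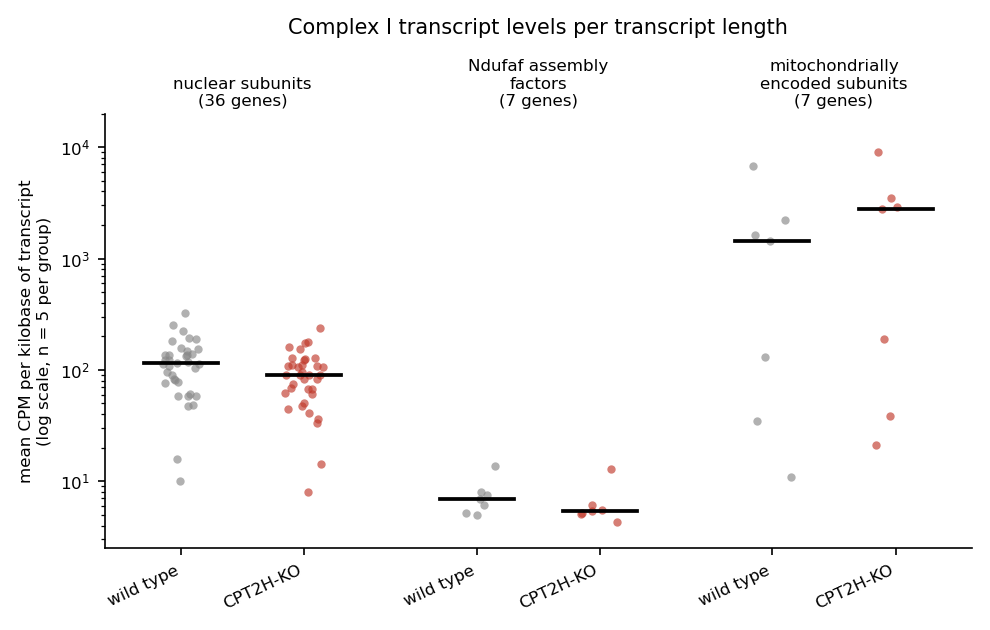
Mean level in CPM per kilobase of principal transcript (log axis) in WT and in CPT2H-KO hearts, side by side, of nuclear subunits, Ndufaf factors and all 7 mt-Nd genes, with group medians as bars. The WT medians are 115, 6.97 and 1430.

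Other known assembly factors carry no Nduf name. Of 12 listed, 11 were tested, 5 were lower (17.0% of genes) and 1 was higher (16.7% of genes), with a median log2 fold change of -0.16. Tmem70, an assembly factor of the membrane arm and of ATP synthase, ranged from 28.3 to 34.2 CPM in WT and from 19.98 to 25.6 CPM in CPT2H-KO hearts, without overlap (-0.46, edgeR adjusted p = 0.00208). Foxred1, a flavoprotein, gave -0.26 (adjusted p = 0.0131), and Tmem126b, a partner of Ndufaf1, gave -0.57 (adjusted p = 0.0140). The higher gene was Acad9, an acyl-CoA dehydrogenase relative that works with Ndufaf1, Ecsit and Tmem126b in assembly. It ranged from 17.0 to 18.4 CPM in WT and from 19.3 to 22.6 CPM in CPT2H-KO hearts, without overlap (0.24 ± 0.063 SE, adjusted p = 0.0152). Under library totals alone, which moved the median of all genes to -0.27, its log2 fold change was -0.03. With the atrial covariate, 2 of the 11 were lower (9.75% of genes) and 0 higher (10.5% of genes). In the comparison of only the 2 CPT2H-KO hearts with Myl7 above 1 CPM, 2 were lower (13.5% of genes) and 0 higher (14.6% of genes). Acad9 passed in neither fit (0.18 and 0.17, edgeR adjusted p = 0.138 and 0.140).

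The mitochondrially encoded subunits went the opposite way from their nuclear partners. Of 7 mt-Nd genes, 6 were higher (16.7% of genes), 5 of them without overlap (11.5% of tested genes were higher without overlap), and the median log2 fold change was 0.66. Their mean levels in the WT hearts ran from 3.26 to 6483 CPM. With library totals alone 5 were higher (5.86% of genes), and with the length offset 6 (16.2% of genes, median 0.79). The exception was mt-Nd3 (0.14 ± 0.17 SE, edgeR adjusted p = 0.556), and mt-Nd4l overlaps mt-Nd4, so reads from the pair may not be told apart.

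The balance between both genomes can be read within each library of the first table. The second table held 0 of the 7 mt-Nd genes, so neither their levels nor this ratio could be compared there. The ratio of the median mt-Nd level (mt-Nd4l left out) to the median nuclear subunit level, each per kilobase, was 12.6, 15.2, 13.3, 12.3 and 13.2 in WT replicates 1 to 5. It was 37.4, 25.1, 32.7, 33.8 and 26.5 in CPT2H-KO replicates 1 to 5. All CPT2H-KO hearts exceeded all WT hearts, and the group means were 13.3 ± 1.15 and 31.1 ± 5.18 (SD, n = 5 each). Mitochondrially encoded transcripts made up 57.9% to 63.0% of the counts in WT and 61.9% to 68.8% in CPT2H-KO hearts.

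Among 10 transcriptional regulators of respiratory chain genes, 3 were higher (16.7% of genes) and 1 was lower (17.0% of genes). Esrrg, an oestrogen-related receptor, ranged from 16.1 to 20.1 CPM in WT and from 22.2 to 26.7 CPM in CPT2H-KO hearts (0.40, edgeR adjusted p = 0.00402). The coactivator gene Ppargc1b gave 0.71 (adjusted p = 0.0198) and Esrrb gave 0.46 (adjusted p = 0.0224), both with overlap. Gabpa, the DNA-binding subunit of NRF2/GABP, gave -0.27 (adjusted p = 0.0224), also with overlap. The other 6 did not pass the test. With library totals alone, 2 regulators were lower (34.2% of genes) and 0 higher (5.86% of genes). With the atrial covariate 0 were lower (9.75% of genes) and 0 higher (10.5% of genes). In the comparison of only the 2 CPT2H-KO hearts with Myl7 above 1 CPM, 1 was lower (13.5% of genes) and 1 higher (14.6% of genes).

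The second comparison asked what the loss of USP30 adds to the loss of CPT2. Usp30 was at 18.5, 22.8 and 21.7 CPM in the single KO hearts and at 10.3, 10.4 and 7.45 CPM in the double KO hearts. The groups were separate (log2 fold change -1.16 ± 0.18 SE, edgeR adjusted p = 0.147). Cpt2 overlapped between them (164 to 182 and 166 to 189 CPM). Of 49 Nduf rows, 47 were tested, and 0 passed the threshold in either direction, where 0.0% of the 12997 tested genes passed. At an unadjusted p under 0.05 there were 0 Nduf genes, beside 7.25% of all genes, and 0 Nduf genes had groups without overlap, beside 5.07% lower and 6.69% higher among all genes. DESeq2 called 113 genes (0.869%) and limma-voom 0, and neither called an Nduf gene.

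In the double KO hearts 33 of 36 subunits had a log2 fold change above 0, where 49.6% of all tested genes lay below 0. Their median was 0.12, with a range of -0.055 to 0.33. The median deviation of the subunits from the single KO mean was 0.35, 0.17 and -0.13 in double KO replicates 1 to 3, and 0.049, -0.088 and 0.020 in single KO replicates 1 to 3. Double KO replicates 1 and 2 thus lay above every single KO heart, and replicate 3 lay below them. Replicate 1 was the highest double KO heart for 29 of the 36 subunits, and replicate 3 the lowest for 33. Without double KO replicate 1 the median was 0.0053, and 17 of the 36 subunits lay below 0, and without replicate 3 it was 0.19. Without replicate 1, 114 genes (0.865%) passed the threshold, with 0 Nduf genes among them.

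**Figure D5:**
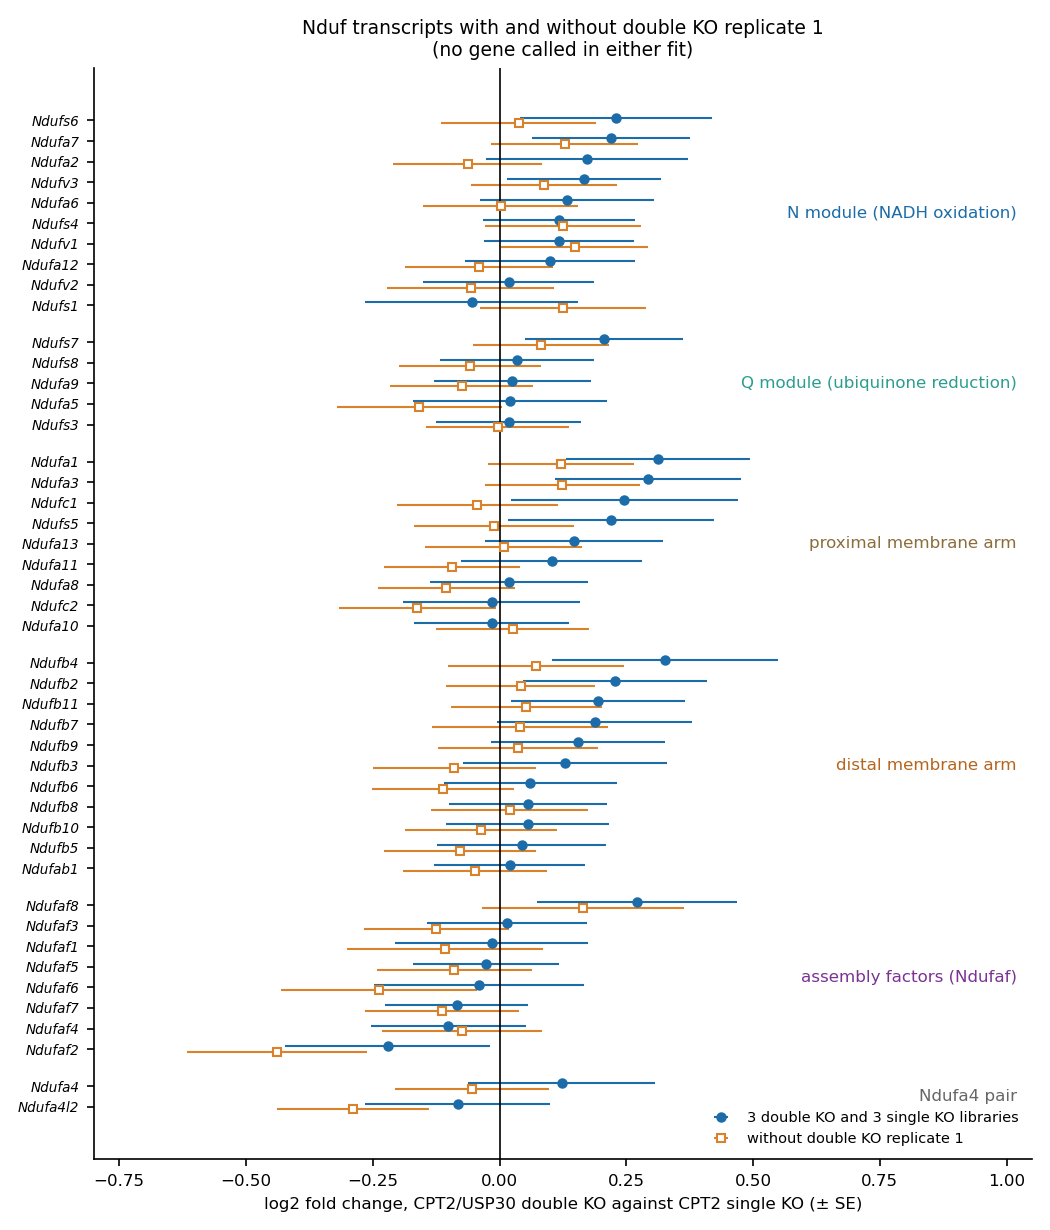
Log2 fold change, double against single KO (points; bars are ± 1 SE from edgeR), of the Nduf genes other than the gene copies and 1 subunit, with all libraries and without double KO replicate 1. The subunit median moves from 0.12 to 0.0053.

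In double KO replicate 1 the deviation went with transcript length. Cut again into 3 groups by length, the shortest genes had a median log2 deviation of 0.185 in this library and the longest one of -0.192. With the transcript-length offset the subunit median was 0.016, with 16 of 36 below 0. The atrial marker Myl7 stood at 1.49, 102 and 425 CPM in double KO replicates 1 to 3 and at or below 0.458 CPM in the single KO hearts. With the atrial covariate the subunit median was 0.42, and 0 of the 36 subunits passed at an adjusted p under 0.05, while 18 had an unadjusted p under 0.05 (21.0% of genes). Y-linked transcripts summed to 124 and 117 CPM in single KO replicates 1 and 2, to 0.733 CPM in single KO replicate 3 and to 0.581 to 0.911 CPM in the double KO hearts. Only single KO hearts held libraries of both kinds, so the loss of USP30 and sex can hardly be told apart here. With a sex term 9 of 36 subunits lay below 0, 0 were called, and the Ndufaf median was -0.20. The part of these shifts in the subunit values was not tested.

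Of the members with the smallest p-values, Ndufa1, an X-linked subunit of the proximal arm, had 136, 115 and 120 CPM in the single KO hearts and 192, 146 and 123 CPM in the double KO hearts (0.31 ± 0.18 SE, edgeR adjusted p = 0.794). Ndufa3, of the same arm, had 364, 273 and 335 CPM and 485, 361 and 346 CPM (0.29 ± 0.18 SE, adjusted p = 0.803). Ndufb4 had 130, 95.8 and 144 CPM and 204, 129 and 130 CPM (0.33 ± 0.22 SE, adjusted p = 0.831). For each of these genes replicate 1 was the highest of the 6 hearts, and the other double KO hearts lay in or near the single KO range.

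The core subunits that were lowest in the CPT2H-KO hearts showed no separation here. Ndufv1 had 590, 555 and 562 CPM in the single KO hearts and 588, 695 and 566 CPM in the double KO hearts (0.12 ± 0.15 SE). Ndufs1 had 452, 435 and 593 CPM and 347, 549 and 528 CPM (-0.05 ± 0.21 SE). Its double KO replicate 1 was the lowest of the 6 hearts, unlike most subunits. The SEs of 0.14 to 0.22 set how small a difference these 6 hearts could show.

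The 8 Ndufaf genes had a median log2 fold change of -0.033 in the double KO hearts, with 6 of them below 0. Ndufaf2 had 20.5, 18.3 and 19.1 CPM in the single KO hearts and 21.2, 16.2 and 12.2 CPM in the double KO hearts (-0.22 ± 0.20 SE, edgeR adjusted p = 0.885). Ndufaf8, the partner that stabilises Ndufaf5, had 29.0, 28.0 and 19.6 CPM and 35.2, 32.9 and 24.5 CPM (0.27 ± 0.20 SE, adjusted p = 0.845). Ndufaf4 gave -0.10 ± 0.15 SE and Ndufaf7 -0.08 ± 0.14 SE. Each of these genes overlapped between the groups. Ndufa4 gave 0.12 ± 0.18 SE, and the 11 other assembly factors and 10 regulators tested included 0 genes past the threshold.

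Of the gene copies, Ndufb4b and Ndufa11b had 0 counts in each of the 6 libraries, which allows up to 3 counts, or 0.224 to 0.275 CPM, in a library. Ndufb4c had 119, 115 and 103 CPM in the single KO hearts and 100, 133 and 91.7 CPM in the double KO hearts, with overlap (-0.05 ± 0.17 SE). The 390 bases of its annotated transcript are identical at 390 of 390 positions to a stretch of the 971-base Ndufb4 transcript. Reads from the pair cannot be told apart within that stretch, so the Ndufb4 and Ndufb4c values of the second table are uncertain. The first table held no Ndufb4c row, and how reads from that stretch were counted there is not known, so its Ndufb4 values are uncertain too.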

How the data were processed

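Hearts were sequenced as rRNA-depleted stranded total RNA (TruSeq with Ribo-Zero), per the labels' protocols. The submitters' processing notes name bcl2fastq, HISAT2, DESeq2 1.42.0 and mm10. For the counting program, its annotation and its use of strand, no source used here gives a name. The deposited values are read counts per gene. Of the 17832 rows deposited as the second table, 1 names no gene and was left out.

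Each table was fitted on its own in R 4.3.3 with edgeR 4.0.16 (filterByExpr, TMM, quasi-likelihood test), with Benjamini-Hochberg adjustment over all tested genes and a threshold of 0.05. The first table kept 14123 genes and the second 12997. The SE is the log2 fold change over the square root of F. Levels per kilobase use GENCODE M21 principal transcripts. The length offset is a loess of each library's log2 CPM deviations on log2 transcript length, on the 97.1% (first table) and 98.9% (second) of tested genes with a length. The fits were tested on simulated counts. Alternatives were library totals, library totals without mitochondrially encoded genes, no filter, DESeq2, limma-voom 3.58.1, a replicate block, an atrial covariate, a sex term and leaving out each library. Named were the core subunits (1 is not reported here, beyond the counts and medians), all Ndufaf genes, and in each letter class those of smallest and largest p. The members and lists were chosen with earlier results of these data known.

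Same-numbered libraries did not deviate together throughout (correlations of -0.047 to 0.26 in the first table and -0.20 to 0.18 in the second), so the numbers were not treated as pairs.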

Additional observations from a re-analysis of the deposited data

Results flagged for a closer look

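Of 90 groups of 5 libraries checked (45 Nduf genes in WT and in CPT2H-KO hearts), 4 had a library set apart from the rest of its group, and chance flags about 1 in 20. All 4 were Ndufaf genes. CPT2H-KO replicate 1 was the low library for Ndufaf5 (4.98 CPM, others 6.64 to 6.75 CPM), for Ndufaf3 (5.95 CPM, others 8.02 to 8.56 CPM) and for Ndufaf6 (3.73 CPM, others 4.85 to 4.92 CPM). WT replicate 5 was the low library for Ndufaf1 (18.1 CPM, others 20.1 to 20.6 CPM). CPT2H-KO replicate 1 was also the lowest of its group for all 7 Ndufaf genes and for 29 of the 36 subunits.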

How the results depend on the processing

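In CPT2H-KO against WT hearts, 33 subunits were lower (17.0% of genes). This count was 16 with the atrial covariate (9.75% of genes) and 19 with the transcript-length offset (15.5%). It was 17 with only the 2 CPT2H-KO hearts that had Myl7 above 1 CPM (13.5%). With 1 library left out it was 27 to 33 (12.9% to 17.2%). The offset and the Myl7 subset were chosen after seeing the data. The count over all genes was 4758, 2856 with the atrial covariate and 3682 to 4787 with 1 library left out. The subunit median of -0.34 was -0.60 under library totals, -0.19 with the offset and -0.37 to -0.31 with 1 library left out. Library totals put 85.4% of all calls on the lower side, against 50.4% under TMM. Called Ndufaf genes, all lower, numbered 3 (17.0% of genes were lower), 5 under library totals (34.2%) and 3 with any library left out (12.9% to 17.2%). The Ndufaf median of -0.21 was -0.46 under library totals, -0.089 with the offset, -0.32 in the Myl7 subset and -0.24 to -0.14 with 1 library left out, with -0.14 reached without CPT2H-KO replicate 1. Library totals without mitochondrially encoded genes gave 29 subunits lower (15.3% of genes). Library totals moved the median of all genes to -0.27, the regulators below 0 from 4 to 7 of 10 and the other assembly factors below 0 from 9 to 11 of 11. Among the named genes recomputed under every setting, signs changed for Ndufaf7 with the offset (0.030), Ndufaf2 under library totals (-0.23), in the Myl7 subset (-0.036) and with 1 library left out (-0.056 to 0.12), mt-Nd3 under library totals (-0.12) and without CPT2H-KO replicate 5 (-0.0023, range to 0.25), and Acad9 under library totals (-0.027).

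In double against single KO hearts, the count over all genes was 0, 113 with DESeq2, 25 with the atrial covariate and 0 to 114 with 1 library left out (114 without double KO replicate 1, 4 without single KO replicate 3), and 0 Nduf genes were called in the fits named in the report. The subunit median of 0.12 was 0.42 with the atrial covariate, 0.016 with the offset and 0.0053 to 0.19 with 1 library left out. The Ndufaf median of -0.033 was 0.20 with the atrial covariate, -0.20 with the sex term and -0.11 to 0.019 with 1 library left out. Signs changed for Ndufaf2 with the atrial covariate (0.26), Ndufb4c with the sex term (0.070) and with 1 library left out (-0.22 to 0.045), Ndufa4 with the offset (-0.021) and with 1 library left out (-0.055 to 0.23), Cpt2 (-0.018 to 0.066) and Ndufs1 (-0.17 to 0.13), the last pair with 1 library left out. The cause was not tested for any of these.

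With the replicate number as a block, 27 subunits and 4179 genes were called in the first table and 1 gene in the second. Of the numbers, 2 of 5 and 1 of 3 had their own number as the best match, so the samples share only a number. The second table held 11067969 to 13532716 counts per library, against 54674422 to 132762776 in the first.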
